A study of Mus musculus with 3 samples.

Results

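The inflammasome and the IL-1 family were followed in PyMT tumor cells stimulated with RANK ligand (RL). Every probe whose accession maps to the 10 genes described here was used. These genes were picked by name for their role, with earlier results of these data known. They are the sensors Nlrp3 and Aim2, the adaptor Pycard, the inflammatory caspases Casp1 and Casp4, the pore-forming Gsdmd, the cytokines Il1a, Il1b and Il18, and the receptor antagonist Il1rn. All 10 had a probe on the array, and 9 of them were among the 21743 genes and transcripts that could be tested.

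Inflammasomes are protein platforms that assemble in the cytosol when a sensor detects microbial products or cell damage. A sensor recruits the adaptor ASC, encoded by Pycard, which activates caspase-1, and caspase-1 cuts the precursors of IL-1β and IL-18 into secreted cytokines. Casp4 encodes the mouse inflammatory caspase long known as caspase-11, which binds bacterial lipopolysaccharide directly and cuts gasdermin D, and the freed fragment of gasdermin D opens pores in the plasma membrane. IL-1α and IL-1β act through the same receptor, which the product of Il1rn blocks, and IL-1 in tumors is known for recruiting neutrophils and other myeloid cells. The mRNA of a caspase or cytokine does not tell whether its protein was cut, and no protein was measured on these arrays.

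MMTV-PyMT mice carry the polyomavirus middle T oncogene under a promoter active mainly in mammary epithelium, and they develop mammary carcinomas. For each of 3 such mice, here tumors 1, 2 and 3, a primary tumor culture that received RL for 24 h was set beside an untreated control culture. The mouse strain, age and RANK genotype are not in the labels of these samples. For such cultures the methods of the study name tumor cells of RANK+/+ or RANK−/− transplants, grown on Matrigel as acini. Cells of all cultures were plated in a medium with serum, cholera toxin, insulin and EGF, and RL followed 24 h after plating. The labels state an RL dose of 1000 µg/mL, whereas the methods of the study state 1 µg/mL. RNA of both cultures of a tumor was labeled with different dyes and hybridized to 1 two-color Agilent array, so each array gives the ratio of RL over control within a tumor. RL was in the Cy3 channel for tumors 1 and 3 and in the Cy5 channel for tumor 2. The labels name 3 separate mice, and each tumor had 1 culture per condition, so the spread between arrays holds the variation of both tumors and cultures. The cultures were not sorted, and in bulk RNA fewer cells of a type and less RNA per cell cannot be told apart.

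The arrays shared a slide and a scan, so no array batch splits the pairs. Between 54.6% and 56.2% of distinct probes were well above background per channel, where a probe counted if most of its spots were. Across genes, the RL over control ratios of tumors 1 and 3 correlated with r = 0.452, whereas tumor 2 correlated with r = −0.11 with tumor 1 and −0.106 with tumor 3. Tumor 2 thus stood apart from the other two arrays, and it is also the only one with RL in Cy5, so tumor and dye order cannot be told apart in it. For the members and pathway genes below whose call changed without tumor 2, the value without it is given. That fit holds tumors 1 and 3 only, both with RL in Cy3, so RL and dye cannot be told apart in it. Of its 21727 genes 680 passed as higher and 964 as lower, beside 1 and 5 with all 3 tumors.

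Casp4 and Il1b were higher in the RL culture of every tumor, with mean log2 ratios of RL over control of 0.45 and 0.28. Il1rn and Gsdmd were also above their control in every tumor, by means of 0.23 and 0.15. Casp1, Pycard, Nlrp3, Il1a and Il18 had mean log2 ratios between −0.10 and 0.04. Aim2 was not well above background in any of the 6 channels. With limma and Benjamini-Hochberg adjustment over all genes, 0 of the 9 tested genes passed an adjusted p of 0.05, beside 0.0046% of all tested genes that passed as higher and 0.023% that passed as lower. At an unadjusted p under 0.05, 3 of the 9 were higher (Casp4, Il1b and Il1rn) and 0 were lower, beside 3.58% and 3.56% of all tested genes. Of the 9, 4 were above 0 in all 3 tumors and 2 below 0 in all 3 (Nlrp3 and Il1a), beside 14.2% and 13.5% of all genes with a value on each array. The filter kept Nlrp3 only through the control channels, where it was higher, so its direction is not independent of the filter. Only Casp4 had levels that did not overlap between the 3 RL and the 3 control cultures, and 1.54% of all genes were separated in this direction and 1.32% in the other. The median log2 ratio of the 9 genes was 0.04, while that of all tested genes was −0.0009. With a filter that asked all 6 channels to be well above background, Nlrp3 dropped out and these medians were 0.095 and −0.0006. These counts and medians are no test of the list, because its genes were chosen with earlier results of these data known.

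**Figure D1:**
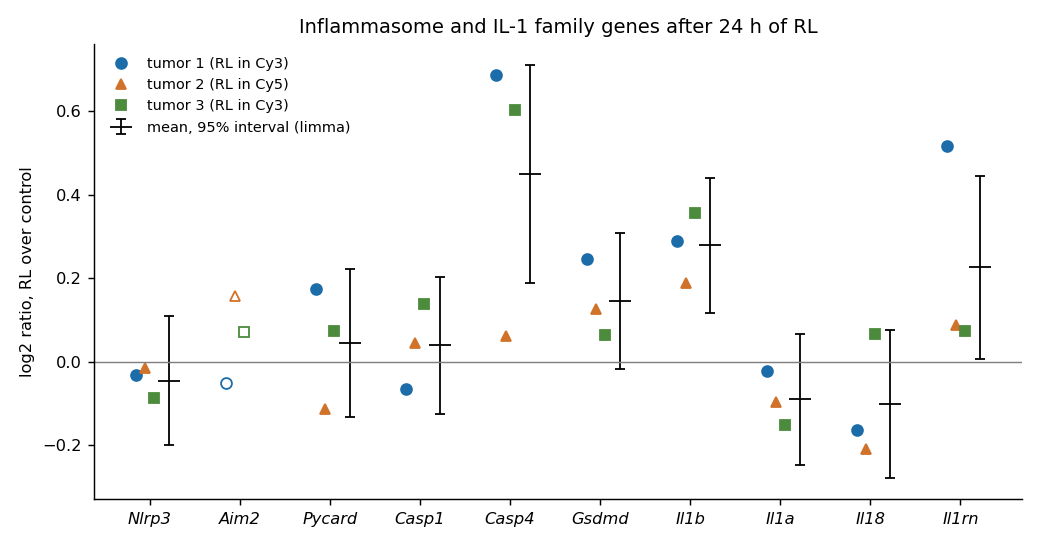
Log2 ratio of RL over control for each gene, with 1 colored symbol per tumor and, beside them, the mean with its 95% interval from limma over the 3 tumors (open symbols, Aim2, not well above background and not tested). The symbols of Casp4, Gsdmd, Il1b and Il1rn all lie above 0, and the tumor 2 symbol of Casp4, at 0.06, lies far below those of tumors 1 and 3.

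Casp4 was the member with the largest mean difference. Its normalized log2 intensity was 10.17, 10.59 and 10.22 in the control cultures of tumors 1, 2 and 3 and 10.86, 10.65 and 10.82 in their RL cultures. The RL cultures lay within a narrow band, the controls of tumors 1 and 3 lay clearly under it, and the control of tumor 2 was the highest control and nearly at the RL level. The log2 ratios were therefore 0.69, 0.06 and 0.60, with a mean of 0.45 (limma SE 0.12, 95% interval 0.19 to 0.71, n = 3), or 1.37-fold. By limma the adjusted p was 0.393. Casp4 had the 43rd highest mean ratio of the 21743 genes and transcripts, and it ranked 67, 7296 and 12 in tumors 1, 2 and 3. A second Casp4 probe was also well above background in every channel. Its log2 ratios of 0.65, 0.09 and 0.63 repeated the order of the tumors, with a mean of 0.45.

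The Casp4 result depended on how tumor 2 was treated. With a dye term in limma, which estimates a gene-specific difference between Cy3 and Cy5, the log2 ratio was 0.35 and the adjusted p 0.00264. Only tumor 2 had RL in Cy5, so that term fits tumor 2 exactly. The SE of 0.074 in that fit rests on the spread between tumors 1 and 3 and on limma's prior, not on the spread over all 3 tumors. In that fit 0.695% of genes passed an adjusted p of 0.05 as higher and 0.875% as lower. Without tumor 2 the mean was 0.65 (adjusted p = 3.79e-07), but both remaining arrays then had RL in Cy3, so a dye difference cannot be told apart from RL there. The rank product, the nonparametric method the study's methods name, put Casp4 at position 31 of the genes that were higher, with a proportion of false positives (pfp) of 0.0332. By that rule 0.166% of genes passed as higher and 0.23% as lower. Il1b had a dye-term adjusted p of 0.0616 and a pfp of 0.388, and every other tested member had a pfp above that of Il1b.

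Casp1 lies next to Casp4 on mouse chromosome 9 in the RefSeq annotation, with 0 genes between them, so the sequences before both start sites are shown, followed by that of Il1b, the member with the next largest ratio. They are the 250 bases before the annotated start in GRCm38.p6 from RefSeq, read 5′ to 3′ on the strand of the gene. Casp4 is at chr9:5308599-5308848 on the plus strand, Casp1 at chr9:5298267-5298516 on the plus strand and Il1b at chr2:129371140-129371389 on the minus strand. Capitals mark matches to the NF-κB consensus, the motif of the transcription factors that RANK is known to activate.
Casp4: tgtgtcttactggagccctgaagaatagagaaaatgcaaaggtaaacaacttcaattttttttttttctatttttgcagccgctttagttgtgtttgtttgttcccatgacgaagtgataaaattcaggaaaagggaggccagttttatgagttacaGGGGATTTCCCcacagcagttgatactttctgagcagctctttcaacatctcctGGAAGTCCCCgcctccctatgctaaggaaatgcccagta
Casp1: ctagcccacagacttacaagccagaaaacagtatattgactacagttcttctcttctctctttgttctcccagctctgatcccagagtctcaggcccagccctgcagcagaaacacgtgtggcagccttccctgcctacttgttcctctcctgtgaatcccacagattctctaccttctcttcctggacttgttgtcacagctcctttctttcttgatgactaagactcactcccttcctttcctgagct
Il1b: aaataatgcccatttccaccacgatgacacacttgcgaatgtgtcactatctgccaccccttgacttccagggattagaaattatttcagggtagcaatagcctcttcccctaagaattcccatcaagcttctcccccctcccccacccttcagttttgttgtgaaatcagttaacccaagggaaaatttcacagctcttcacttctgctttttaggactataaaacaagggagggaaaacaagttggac

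The Casp4 sequence holds 3 matches, of which 2 overlap and begin 93 and 92 bases before the start, and the third begins 39 bases before it on the opposite strand. The searched windows ran from 250 bases before to 50 bases after each start and were read on both strands. RefSeq windows were found for 9 of the 10 members, with 13 windows in all. The NF-κB consensus was searched as GGGRNNYYCC, where R is A or G, Y is C or T and N is any base. Matches to it were in windows of 2 members, Casp4 and Nlrp3, and in 8.46% of all 32851 mouse windows. A member can have several windows, so counts of members and shares of windows are unlike measures here. An AP-1 motif, TGANTCA, was in windows of 2 members, 12 bases before the start of Il1a and 141 bases before a start of Il1rn, and in 7.81% of all windows. The repeat bound by interferon regulatory factors was in the windows of 0 members and in 3.44% of all windows. These are matches of letters only, and no binding was measured.

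Casp1, the caspase that processes IL-1β and IL-18, did not show the Casp4 pattern. Its log2 intensity was 12.84, 12.50 and 12.27 in the controls and 12.77, 12.54 and 12.40 in the RL cultures. The groups overlapped, and the tumors differed from each other more than the cultures of a tumor did. The log2 ratios were −0.07, 0.04 and 0.14, with a mean of 0.04 (limma SE 0.07, 95% interval −0.13 to 0.20, adjusted p = 0.940). Within each tumor the Casp4 ratio exceeded that of Casp1, by 0.75, 0.02 and 0.47 on the log2 scale, and in tumor 2 the ratios of both caspases were nearly equal. No test was made of this difference.

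Among the sensors and the adaptor the ratios were small. Pycard, which encodes the ASC adaptor, had log2 intensities of 10.84, 11.22 and 10.96 in the controls and 11.01, 11.11 and 11.03 in the RL cultures. Its groups overlapped, and the ratios of 0.17, −0.11 and 0.07 pointed in different directions, with a mean of 0.04 (limma SE 0.08, adjusted p = 0.933). Nlrp3, the sensor of membrane damage and ion flux, was dim, with log2 intensities of 6.40, 6.19 and 6.36 in the controls and 6.37, 6.18 and 6.28 with RL. It was well above background in 3 of 3 control channels but in 2 of 3 RL channels, missing in tumor 2. The filter thus kept Nlrp3 only through the control channels, where it was higher, so its direction is not independent of the filter. Its log2 ratios were −0.03, −0.02 and −0.09, with a mean of −0.05 (limma SE 0.07, adjusted p = 0.923) that was −0.21 with processed signals, and the second Nlrp3 probe was not well above background in any channel. Aim2, a sensor of cytosolic DNA, read 6.004, 6.08 and 6.16 in the controls and 5.95, 6.24 and 6.23 with RL. These Aim2 readings were not well above background in any tumor, so no ratio or bound is given for RL.

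Gsdmd, the gene of the pore-forming substrate of both caspases, was printed as 10 replicate spots on each array. Its log2 intensity was 7.91, 8.87 and 8.70 in the controls and 8.16, 8.99 and 8.76 in the RL cultures. RL was above control within each tumor, but tumor 1 was lower than the other tumors in both conditions, so the groups overlapped. The log2 ratios were 0.25, 0.13 and 0.06, with a mean of 0.15 (limma SE 0.07, 95% interval −0.02 to 0.31). By limma the adjusted p was 0.742. All 10 spots lay above 0 in tumors 1 and 2, and 9 of 10 did in tumor 3, with SDs over spots of 0.107, 0.0910 and 0.0698. The spots repeat the measurement of the same RNA and are not replicates of the treatment. Without tumor 1 the mean was 0.10.

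Il1b, the gene of the cytokine whose precursor caspase-1 cuts, was the member with the most even ratios among those above 0. Its log2 intensity was 6.53, 6.33 and 6.86 in the controls and 6.82, 6.52 and 7.21 in the RL cultures. Each RL culture was above its own control, while the order of the tumors was the same in both conditions, with tumor 3 highest and tumor 2 lowest, so the groups overlapped. The log2 ratios were 0.29, 0.19 and 0.36, with a mean of 0.28 (limma SE 0.07, 95% interval 0.12 to 0.44), or 1.21-fold. By limma the adjusted p was 0.390, and Il1b ranked 189 by mean ratio. Il1b was also printed as 10 spots, of which 10, 8 and 9 were used after outliers were left out. Every used spot lay above 0 in every tumor, from 0.14 to 0.47 in tumor 1, from 0.08 to 0.31 in tumor 2 and from 0.07 to 0.53 in tumor 3.

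**Figure D2:**
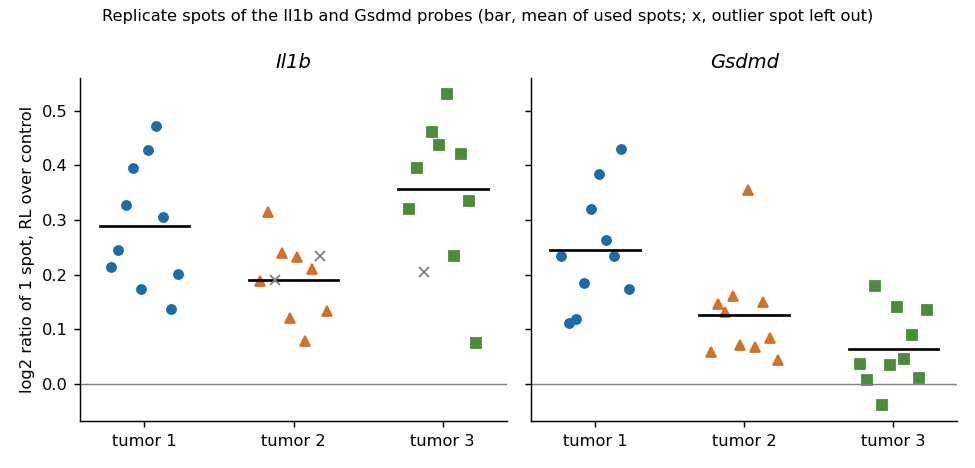
Log2 ratio of RL over control of each replicate spot of the Il1b (left) and Gsdmd (right) probes in tumors 1, 2 and 3, with bars at the mean of the used spots and crosses for outlier spots left out. The Il1b spots all lie above 0, and for Gsdmd only 1 spot of tumor 3 lies below it.

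The size of the Il1b ratio varied with background handling. Its signal was close to background, and the offset of 50 added to every intensity, 5.64 on the log2 scale, draws ratios of dim probes toward 0. With the scanner software's own processed signals the mean log2 ratio of Il1b was 0.72 (adjusted p = 0.400), and in the authors' table it was 0.45 (adjusted p = 0.168), so the direction held while the size varied. Without tumor 2 the mean was 0.32 (adjusted p = 0.0108), in the fit with RL in Cy3 on both arrays, where 680 genes passed as higher and 964 as lower. Il1b and Gsdmd are also in a list of genes that the study chose as induced by RL on these same arrays, so that list is not independent evidence of their direction.

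The cytokine genes Il1a and Il18 did not follow Il1b. Il1a, which encodes the cytokine sharing its receptor and lying near it on chromosome 2, had log2 intensities of 6.72, 6.52 and 8.07 in the controls and 6.70, 6.42 and 7.92 with RL. Tumor 3 stood far above the other tumors in both conditions, and the RL and control cultures of a tumor were close. The log2 ratios were −0.02, −0.10 and −0.15, with a mean of −0.09 (limma SE 0.07, 95% interval −0.25 to 0.07, adjusted p = 0.845). Il18, the other substrate of caspase-1 among these cytokines, read 6.81, 7.37 and 7.05 in the controls and 6.65, 7.17 and 7.12 with RL. Its ratios of −0.16, −0.21 and 0.07 differed in sign, with a mean of −0.10 (limma SE 0.08, 95% interval −0.28 to 0.08, adjusted p = 0.846). Within each tumor the Il1b ratio exceeded that of Il1a, by 0.31, 0.29 and 0.51, and that of Il18, by 0.45, 0.40 and 0.29. Both differences ran the same way in all 3 tumors and were not tested.

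Il1rn, the antagonist of the IL-1 receptor, rested on a single tumor. Its log2 intensity was 7.01, 7.76 and 7.79 in the controls and 7.52, 7.85 and 7.86 with RL. The control of tumor 1 was the lowest of the 6 cultures, and its RL culture came close to the other tumors, so the groups overlapped. The log2 ratios were 0.52, 0.09 and 0.07, with a mean of 0.23 (limma SE 0.10, 95% interval 0.01 to 0.45, adjusted p = 0.694). Without tumor 1 the mean was 0.08, and without tumor 2 it was 0.30 (adjusted p = 0.0330). In that last fit both arrays had RL in Cy3, and 680 genes passed as higher and 964 as lower. The Il1b ratio minus the Il1rn ratio was −0.23, 0.10 and 0.28, so cytokine and antagonist had no common order across the tumors.

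**Figure D3:**
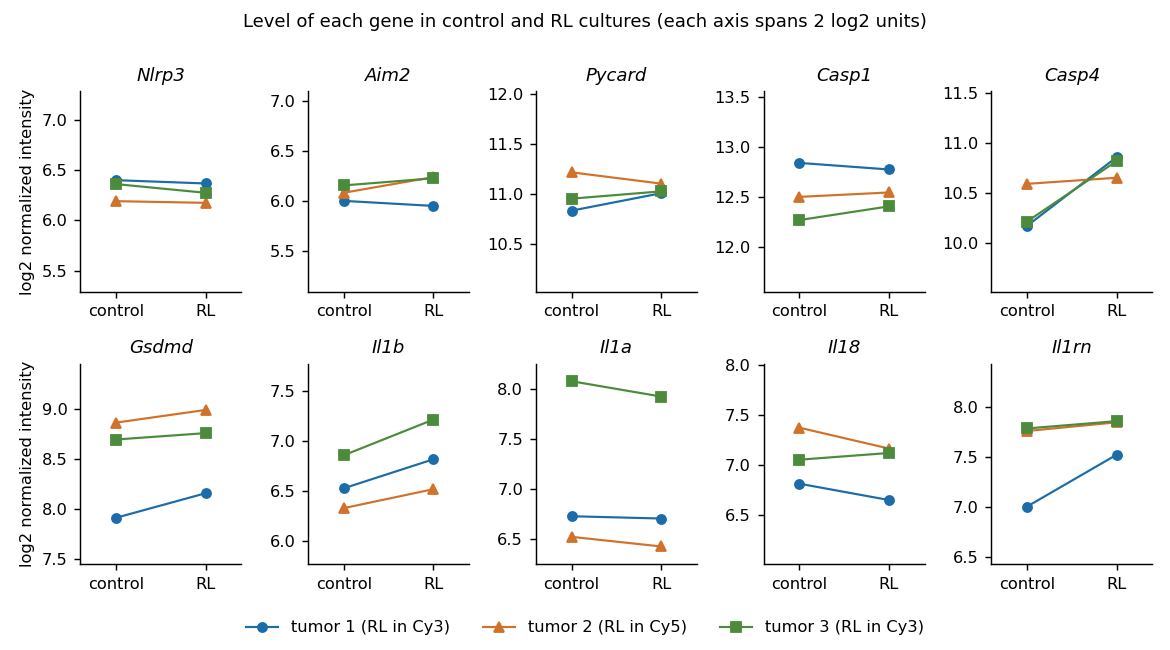
Normalized log2 intensity of each gene in the control and RL culture of each tumor, joined by a line per tumor, with every vertical axis spanning 2 log2 units (levels of different probes are not comparable). The Casp4 lines of tumors 1 and 3 slope upward to meet the nearly flat line of tumor 2, whereas for Il1b the 3 lines are close to parallel.

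The other genes of the pathway were read from lists of related genes. Of the sensors and regulators, 10 of 18 were tested, 0 passed the adjusted p, and 2 were above and 2 below 0 in all 3 tumors, with a median log2 ratio of 0.05. The largest mean ratio was that of Ifi204, a DNA-binding interferon-inducible protein, at 0.20 (adjusted p = 0.692). Without tumor 2 its adjusted p was 0.0229, in the fit where 680 genes passed as higher and 964 as lower. Next in size came Txnip, a thioredoxin inhibitor that can bind NLRP3, at −0.18 (adjusted p = 0.657), and Naip5, a flagellin sensor, at 0.12. Txnip was below control in all 3 tumors. Of the guanylate-binding proteins and the related Irgb10 (Gm12250), GTPases that help to expose bacterial lipopolysaccharide to caspase-11, 10 of 12 were tested and 0 passed. All 10 had mean ratios above 0, between 0.002 and 0.16, with a median of 0.08, while 49.6% of all genes were above 0; the count was 7 of 10 without tumor 3 and 6 of 10 with median centering. Under that centering all genes had a median of −0.11 and 18.0% of them were above 0, while the median of these 10 was 0.02. Only Gbp2b was above 0 in each tumor, at 0.19, 0.14 and 0.15 (adjusted p = 0.692). It was dim, and with processed signals its mean was 0.82. Gbp2b was well above background in 3 of 3 RL channels but in 2 of 3 control channels. The filter thus kept it only through the RL channels, where it was higher, so its direction is not independent of the filter. Gbp7 and Gbp3 followed with means of 0.14 and 0.12. Of the other gasdermins and Ninj1, the protein that ruptures the membrane after pores have formed, 4 of 9 were tested, 0 passed, and the mean ratios lay between −0.004 and 0.10, with Ninj1 at 0.10, Gsdmc at 0.04 and Gsdme at 0.01.

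Il18r1, the ligand-binding chain of the IL-18 receptor, had the largest mean ratio of the pathway lists read here. Its log2 ratios were 0.56, 0.33 and 0.32, with a mean of 0.40 (limma SE 0.08, adjusted p = 0.221). Averaged over the kept probes of Il18r1 they were 0.42, 0.19 and 0.22, with a mean of 0.28 (limma adjusted p = 0.395), so the size depended on the probe. With a dye term the adjusted p of Il18r1 was 0.00107 and without tumor 2 it was 0.000345, whereas its pfp was 0.113. The dye term fits tumor 2 exactly, as said for Casp4. Without tumor 2 both arrays had RL in Cy3, and 680 genes passed as higher and 964 as lower. Its partner chain Il18rap, a dim gene, was above 0 in all 3 tumors with a mean of 0.18 (adjusted p = 0.699), which was 0.66 with processed signals. With median centering the 3 tumors of Il18r1 and of Il18rap no longer shared a sign.

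Of the IL-1 family receptors and binding proteins, 7 of 9 were tested, 0 passed, and the median was −0.01. Il1r1, the receptor through which both IL-1 cytokines signal, had log2 ratios of −0.12, 0.09 and −0.26, with a mean of −0.10 (adjusted p = 0.871). Among the remaining IL-1 family cytokines 2 of 6 were tested, and neither passed. Il1f6, which encodes IL-36α, was at 0.10 and Il33, an alarmin, at −0.09, with Il33 ratios of −0.39, 0.26 and −0.13. All 11 genes of IL-1 receptor signaling were tested and 0 passed, with a median of −0.03. Their largest means were those of Map3k7, the kinase TAK1, at 0.14, Tollip, an inhibitor of the receptor complex, at −0.10 and Tab2, a TAK1-binding adaptor, at −0.09. Averaged over the kept probes of a gene, Map3k7 was at 0.05 and Tollip at −0.03, so their place depended on the probe. Without tumor 2 the means were 0.23 for Map3k7, −0.19 for Il1r1, −0.26 for Il33, 0.26 for Naip5 and 0.21 for Ninj1, none of which passed.

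**Figure D4:**
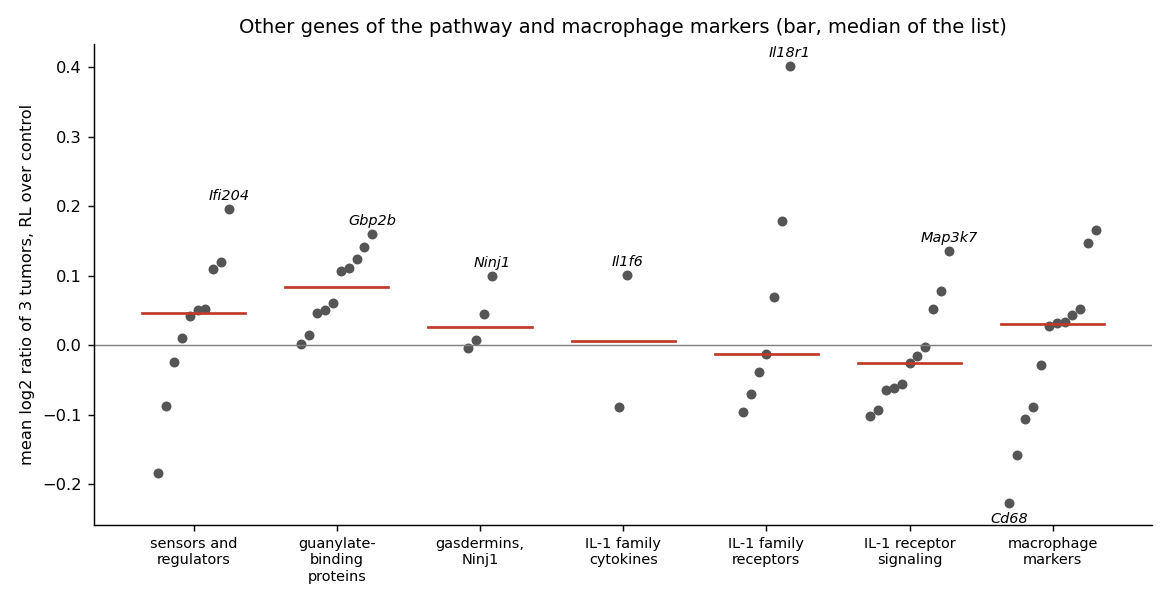
Mean log2 ratio of RL over control of the 3 tumors for each tested gene (point) of 6 pathway lists and of the macrophage marker list, with a bar at each list's median and the gene farthest from 0 named. Il18r1 stands apart from the other points, and all 10 points of the guanylate-binding protein list lie above 0, the lowest at 0.002, whereas 7 did without tumor 3, and 6 did with median centering, where the median of all genes was −0.11.

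Markers of other cells were read beside these genes, because inflammasome genes and Il1b are known to be abundant in macrophages and neutrophils. All 12 macrophage and monocyte markers were tested, 0 passed the adjusted p, and their median log2 ratio was 0.03. Cd68 was lowest at −0.23, with Tyrobp at −0.16 and Aif1 highest at 0.17. Their mean control log2 intensity ran from 6.29 for Ptprc to 13.34 for Cd14, with Itgam next to Cd14 at 12.35. Ptprc, Laptm5, Adgre1 and Fcgr1 were dim, and the offset draws ratios of such probes toward 0. Ptprc was well above background in 3 of 3 RL but 2 of 3 control channels, so the filter kept it only through the RL channels. The summed intensity of the 12 markers was 15449 to 26363 in the controls and 15206 to 34377 with RL, and Cd14 and Itgam weigh most in it. The log2 ratio of this sum was 0.38, −0.02 and −0.02 in tumors 1, 2 and 3, so it was above control in tumor 1, where the bright Cd14 was at 0.57. Most of the list went the other way there, with 8 of the 12 markers below control, among them Mrc1 at −0.41, Cd68 at −0.36 and Lyz2 at −0.30, and a list median of −0.07. Tumor 1 was also the tumor with the largest Casp4, Il1rn and Gsdmd ratios, and the part of macrophage RNA in them was not tested. In tumor 3 the Casp4 and Il1b ratios were 0.60 and 0.36. The macrophage sum was slightly below its control there, while 6 of the 12 markers were above control and 6 below, with a list median of 0.02. The part of macrophage RNA in the ratios of tumor 3 was not tested either.

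Of 8 neutrophil markers 4 were tested, and Cxcr2 and Ngp were not well above background in any channel. The summed intensity of the 4 was 39291 to 43938 in the controls and 38617 to 44290 with RL, nearly all of it from Csf3r. The neutrophil marker with the largest difference was Mmp8, at −0.25 (adjusted p = 0.562). Mmp8 was well above background in 3 of 3 control channels but in 2 of 3 RL channels, so the filter kept it only through the controls, where it was higher. Of the T and B cell markers 2 of 8 were tested, and Cd3g, Cd8a and Ms4a1 were not well above background in any channel. Their summed intensity was 1384 to 1611 in the controls and 1331 to 1623 with RL. The 8 fibroblast markers were all tested, 0 passed, and their median was −0.05, with Pdgfra lowest at −0.19. Their summed intensity was 4528 to 18676 in the controls and 4853 to 18259 with RL. In tumor 1 all 8 were below control, with a list median of −0.28, and the medians of tumors 2 and 3 were 0.12 and −0.05. The log2 ratios of the sum were −0.27, 0.10 and −0.03, and the part of this shift in the ratios of tumor 1 was not tested. All 9 epithelial markers, among them the keratins Krt8, Krt18 and Krt14, were well above background in every channel, as the labelled origin of the cultures has it, and 0 passed, with a median of −0.02.

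The sum and the median of the epithelial markers had opposite signs in tumors 1 and 2. The sum was 270707 to 470453 in the controls and 280139 to 348706 with RL, and its log2 ratios were −0.29, 0.12 and −0.43 in tumors 1, 2 and 3. Krt18, a luminal keratin, carried most of this with ratios of −0.72, 0.42 and −0.70 (mean −0.34, and −0.71 without tumor 2, adjusted p = 0.781 with all 3 tumors). The other 8 markers were all above control in tumor 1 and all below it in tumor 2, and the list medians were 0.15, −0.18 and −0.08. In both measures tumor 2, the only one with RL in Cy5, had the sign opposite to tumor 1, and with a dye term the Casp4 ratio was the 0.35 given above. The part of epithelial RNA in it was not tested.

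The genes whose 3 ratios were most like those of Casp4 were found by the Euclidean distance over tumors 1, 2 and 3 among all named genes tested. They were Upp1, a uridine phosphorylase, at a distance of 0.175, Tap2, a peptide transporter of antigen presentation, at 0.186, Traf2, an adaptor of TNF receptor family signaling, at 0.210, Kifc1, a mitotic kinesin, at 0.264, and Lmnb1, a nuclear lamin, at 0.265. The Tap2 ratios were 0.64, 0.15 and 0.45 and those of Traf2 were 0.84, 0.19 and 0.54. None of the 5 passed the adjusted p, the lowest being 0.234 for Upp1. The likeness rests on 3 arrays and describes these arrays only.

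Other ways of processing changed sizes more than directions for the members with the largest ratios. Casp4, Il1b, Il1rn and Gsdmd had mean log2 ratios above 0 under each of 18 settings, the reported one included, from 0.30 to 0.65 for Casp4, from 0.19 to 0.72 for Il1b, from 0.08 to 0.35 for Il1rn and from 0.05 to 0.20 for Gsdmd. Several of these settings, the eBayes options and the fit without pairing, change only the test and cannot move a mean. The Casp4 mean also stayed at 0.45 without Aquantile, with either other filter and with outlier spots kept. All settings use the same 3 arrays, so a shared direction is not independent evidence. Il1a and Il18 were below 0 under each of 18 settings, and Nlrp3 under each of the 17 that could be run for it. Nlrp3 was kept by the filter only through its control channels, and without background correction its tumor 2 ratio was 0.06. Casp1 was below 0 in 3 of 18 settings and Pycard in 2 of 18, so neither had a settled direction. With median centering in place of loess, which moved the median of all genes to −0.11, the tumors of Il1rn and Gsdmd no longer shared a sign, while Casp4 and Il1b stayed above 0 in each tumor. Without background correction the Casp4 ratio of tumor 2 was −0.003.

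**Figure D5:**
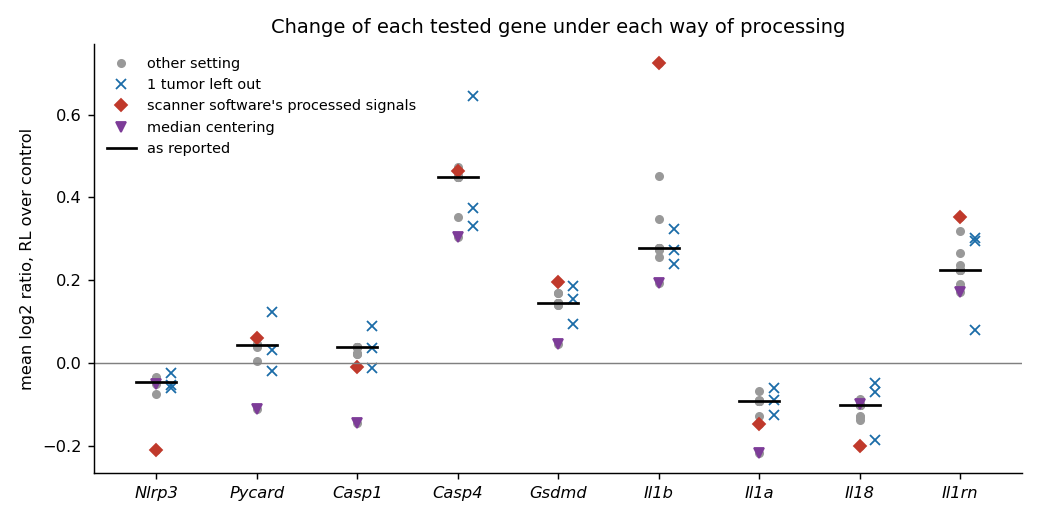
Mean log2 ratio of RL over control of the 9 tested genes as reported (black bar), under other settings (grey), with the scanner software's processed signals (red diamond), with median centering (purple triangle) and with each tumor left out (blue cross). Casp4, Gsdmd, Il1b and Il1rn stay above 0 throughout, and the Il1b values reach from 0.19 to 0.72.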

How the data were processed

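Scanner output of each array was the starting point. The authors deposited uncorrected median intensity values of every spot and of the area around it for both dyes, beside processed intensity values and outlier and saturation marks, all from Agilent Feature Extraction 10.7.3.1. The authors also deposited normalized log2 ratios, which matched Cy5 over Cy3 (r = −0.961, 0.954 and −0.96 with RL over control here) and had column medians of 0.00244, −0.0011 and 0.00069, and their exact scale is not stated.

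Background was corrected by normexp (offset 50) over all spots with limma 3.58.1 (R 4.3.3). The 3671 control spots were then dropped, and intensity loess, spatial loess (span 0.1) and Aquantile followed. Outlier spots (195 to 223 per array) were left out, and spots of a probe were averaged. Accessions without version matched RefSeq genes of GRCm38.p6 for 28026 of 55681 probes. A probe was kept if all 3 control or all 3 RL channels were well above background (29429 probes), and the brightest stood for a gene. The ratio was tested against 0 by limma's moderated test (residual degrees of freedom 2, prior 6.81), which pairs the cultures by tumor as the labels do, and adjusted over 21743 genes at 0.05. No spot of a member was saturated. The rank product used its exact null distribution in Python 3.11.15, without permutations. The programs were tested on simulated data.

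The members and lists were chosen with earlier results of these data known. Named genes were all members, the 3 largest mean ratios of each pathway list and the 5 genes nearest to Casp4. Some related genes are not reported here. Marker genes were named as examples after their values were seen. Alternatives covered the dye term, eBayes options, background, normalization, filters, probe choice, the authors' table, pairing, rank product and each tumor left out.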

Additional observations from a re-analysis of the deposited data

How the results depend on the processing

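Over all genes, the count passing as higher and lower was 1 and 5. A dye term gave 151 and 190, an intensity trend 9 and 21, robust moderation 7 and 12, uncorrected background 4 and 10, no filter 0 and 3, the rank product 36 and 50, and an unadjusted p under 0.05 gave 778 and 775. Processed signals, median centering and the fit without the replicate block, which ignores the pairing by tumor, each gave 0 and 0. The filter on all 6 channels gave 0 as higher, and 2 were higher with the authors' log2 ratios. With each tumor left out the counts ranged from 0 to 680 as higher and from 1 to 964 as lower, with 680 and 964 reached without tumor 2, when Casp4, Il1b, Il1rn, Il18r1 and Ifi204 (adjusted p = 0.0229) passed. Members above 0 in all 3 tumors numbered 2 with median centering and 3 without background correction. With a tumor left out, 4 to 5 members were above 0 in both remaining tumors, which is a laxer count. No share of all genes is given beside these counts. The members' median was −0.050 with median centering, against an all-gene median of −0.11, and 0.031 to 0.12 with a tumor left out.

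Directions turned for genes near 0. With median centering the values were −0.14 for Casp1, −0.11 for Pycard, −0.029 for Map3k7, −0.069 for Gbp3, −0.077 for Ninj1, −0.068 for Gsdme and −0.054 for Naip5. Casp1 was at −0.010 with processed signals and Gsdme at −0.013 with a dye term. With each tumor left out, Casp1 ranged from −0.011 to 0.091, Pycard from −0.020 to 0.12, Il33 from −0.26 to 0.064, Gsdmc from −0.013 to 0.078 and Gsdme from −0.032 to 0.049. Of 161 values of 9 members over these alternatives, 151 kept their direction and side of the threshold, 5 newly passed and 5 turned. Of 305 values of 17 other pathway genes, 293 kept both, 3 newly passed and 9 turned. The cause of the turned directions was not tested. Settings that change only the test (eBayes options, no pairing, rank product) could not turn a direction. None of these genes passed as reported, so a value that kept its side of the threshold did not pass. Dim probes (Il1b, Nlrp3, Il1a, Il18) limit how well sizes are known.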
